A study of Rattus norvegicus with 12 samples.

Results

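The 6 protein-coding genes of mitochondrial DNA that encode subunits of respiratory complexes III, IV and V were followed in the neonatal rat left ventricle, namely Mt-cyb (ENSRNOG00000031766), Mt-co1 (ENSRNOG00000034234), Mt-co2 (ENSRNOG00000030371), Mt-co3 (ENSRNOG00000030700), Mt-atp6 (ENSRNOG00000031979) and Mt-atp8 (ENSRNOG00000033299). They were chosen by this role, by identifier and not by their measured values, though earlier results of these data were known. All 6 were found among the 34733 rows of every count file. Sprague–Dawley pups of both sexes were operated on the first postnatal day, either with banding of the abdominal aorta (ABS), where a thread tied over a needle leaves the vessel narrowed, or with a sham operation. Left ventricles were taken at postnatal day 3 (P3) or 7 (P7), with 3 libraries in each of the 4 groups, ABS P3, sham P3, ABS P7 and sham P7. The sample labels call the material left ventricular myocardiocytes, the methods call it left ventricles, and the check against cardiomyocyte markers was not run because the identifiers could not be matched to symbols. The sex of each pup is not given in the sources used here. In bulk RNA of this kind, a smaller share of cells rich in mitochondria and less of the transcript in each cell cannot be told apart.

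The mitochondrial genome is a small circular DNA, present in many copies per cell, that is copied into long RNAs from which ribosomal RNAs, transfer RNAs and messenger RNAs are cut. Its proteins are all core subunits of the respiratory chain and of ATP synthase, which they join together with subunits encoded in the nucleus. The heart is among the tissues richest in mitochondria, and after birth its muscle shifts from glycolysis towards oxidative phosphorylation. Complex III passes electrons from ubiquinol to cytochrome c, complex IV (cytochrome c oxidase) passes them on to oxygen, and complex V (ATP synthase) uses the proton gradient that both help to build.

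Each library was deposited as counts of reads per gene, and the totals lay between 14268210 and 17286278. Levels are given in CPM, which are counts brought to a common library total after scaling by the trimmed mean of M-values (TMM), a factor that aligns the bulk of genes between libraries. At P7, every library held at least 1 count on 18579 to 18982 genes. At P3, sham replicate 1 had 18359 such genes, ABS replicate 3 had 17530 and sham replicate 3 had 17259, while ABS replicates 1 and 2 and sham replicate 2 stood apart with 15266, 15719 and 15451. Fold changes and adjusted calls of edgeR and overlaps of CPM that include these 3 libraries are given with and without them. Unadjusted calls, group means, medians over the 6 genes, the other tools, unscaled totals and correlations rest on all libraries.

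The 6 genes together took 18.1% of the counts of ABS replicate 1 at P3 (95% Wilson interval 18.05 to 18.09, counting error only) and 17.5% of sham replicate 2. ABS replicate 2 followed with 14.6%. The other P3 libraries were close to each other, with 12.9% in ABS replicate 3, 12.9% in sham replicate 1 and 12.4% in sham replicate 3. At P7, the share was 10.5%, 11.6% and 9.12% in the libraries of the ABS group and 10.1%, 10.5% and 10.0% in those of the sham group. All 6 libraries of P3 thus lay above all 6 libraries of P7, and the 3 highest shares were found in the 3 libraries with the fewest genes detected.

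**Figure D1:**
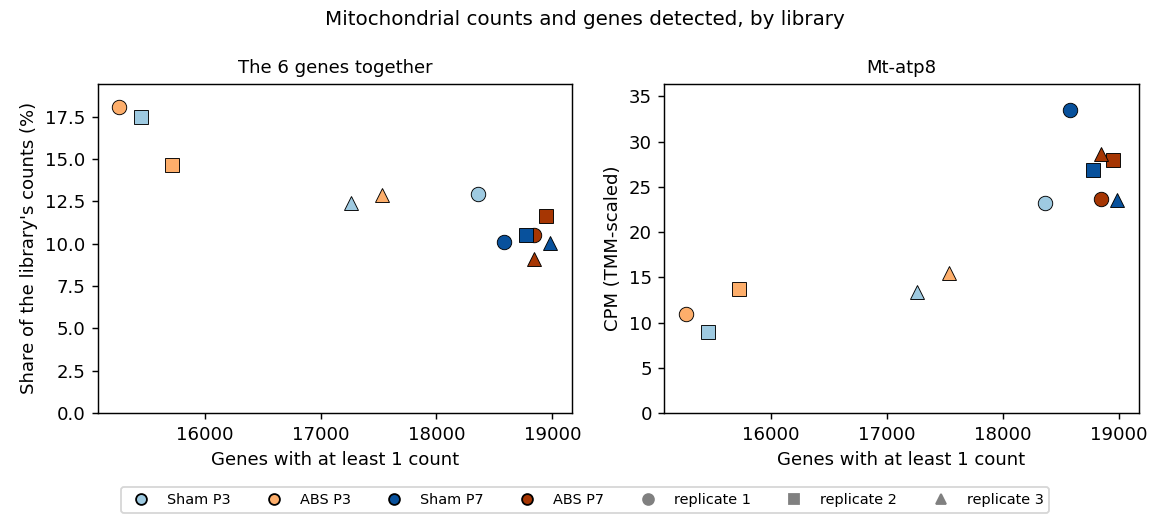
The share of a library's counts on the 6 genes (left, percent) and the Mt-atp8 level (right, CPM) are plotted against the genes detected (1 count or more), with 1 point per library, colored by group and shaped by replicate. The 3 libraries with 15266 to 15719 genes have shares of 14.6% to 18.1%, while the P7 libraries lie at 9.12% to 11.6% and have the highest Mt-atp8 levels.

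Cytochrome b, the product of Mt-cyb, holds the site of complex III at which ubiquinol is oxidized and the one at which ubiquinone is reduced, and it is the only subunit of that complex encoded in mitochondria. Mt-cyb was at 23504, 18026 and 18333 CPM in ABS replicates 1, 2 and 3 of P3. In the sham group of P3, it was at 17329, 22622 and 16569 CPM. ABS replicate 1 and sham replicate 2 were high, and the other 4 libraries of that day lay close together. At P7, Mt-cyb was at 15829, 18137 and 13925 CPM in the ABS group. The sham libraries of P7 had 14577, 16106 and 13451 CPM, so that the surgery groups overlapped on both days and ABS replicate 2 of P7 reached into the range of the P3 libraries. Among the 6 genes, Mt-cyb spanned the narrowest range, with a 1.75-fold distance between its highest and lowest library.

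Cytochrome c oxidase subunit 1, encoded by Mt-co1, carries the heme and copper center at which oxygen is reduced. Its level was 90853, 68385 and 54145 CPM in ABS replicates 1, 2 and 3 of P3. The sham libraries of P3 were at 55760, 87315 and 50221 CPM. The 3 libraries with the fewest genes detected were thus the 3 highest, and 2 sham libraries lay within the range of the ABS libraries. At P7, Mt-co1 was at 40307, 46326 and 34931 CPM after ABS and at 38300, 39417 and 37935 CPM after sham surgery. Every P7 library lay below every P3 library, and the sham libraries of P7 differed among themselves by less than the ABS libraries did (coefficient of variation 2.00% and 14.1%).

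Subunit 2, from Mt-co2, receives electrons from cytochrome c at its own copper center, and subunit 3, from Mt-co3, sits beside subunit 1 in the membrane. Mt-co2 was at 20864, 16183 and 10736 CPM in ABS replicates 1, 2 and 3 of P3 and at 11936, 23238 and 13598 CPM in the sham replicates. At P7, it was at 10004, 11036 and 9185 CPM after ABS and at 10901, 10420 and 10151 CPM after sham surgery. ABS replicate 3 of P3 therefore lay within the range of the P7 libraries, while all sham libraries of P3 lay above it. Mt-co3 was at 31360, 23813 and 15458 CPM in the ABS group of P3 and at 18606, 35324 and 19477 CPM in the sham group. Its P7 values were 14533, 15843 and 13045 CPM after ABS and 14257, 15846 and 15631 CPM after sham surgery. The order of the libraries at P3 was that of Mt-co2, with sham replicate 2 highest and ABS replicate 3 lowest.

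Subunit a of ATP synthase, encoded by Mt-atp6, forms the proton path beside the rotating ring, and the small subunit from Mt-atp8 anchors the stalk of the enzyme in the membrane. The reading frames of both genes overlap, and they are carried on a shared messenger RNA. How reads lying on both genes were counted is not given in the sources used here, so the level of Mt-atp8 in particular is uncertain. Mt-atp6 was at 43923, 33846 and 24599 CPM in ABS replicates 1, 2 and 3 of P3, and at 23977, 44518 and 25267 CPM in the sham replicates. At P7, it was at 16908, 19186 and 15225 CPM after ABS and at 16138, 16835 and 14878 CPM after sham surgery. All P3 libraries were above all P7 libraries, and the lowest of them was sham replicate 1.

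Mt-atp8 was counted far more sparsely, with 122 to 511 counts per library. In ABS replicates 1, 2 and 3 of P3, it had 151, 194 and 240 counts, which correspond to 10.9, 13.7 and 15.4 CPM. The sham replicates of P3 had 406, 122 and 214 counts, or 23.2, 8.90 and 13.3 CPM. Here the libraries in which the other 5 genes were highest, ABS replicate 1 and sham replicate 2, were the lowest. At P7, Mt-atp8 was at 23.7, 28.0 and 28.6 CPM after ABS and at 33.4, 26.9 and 23.5 CPM after sham surgery. Every P7 library was above every P3 library, the reverse of Mt-co1 and Mt-atp6, although sham replicate 1 of P3 was within 1 CPM of the lowest P7 libraries.

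**Figure D2:**
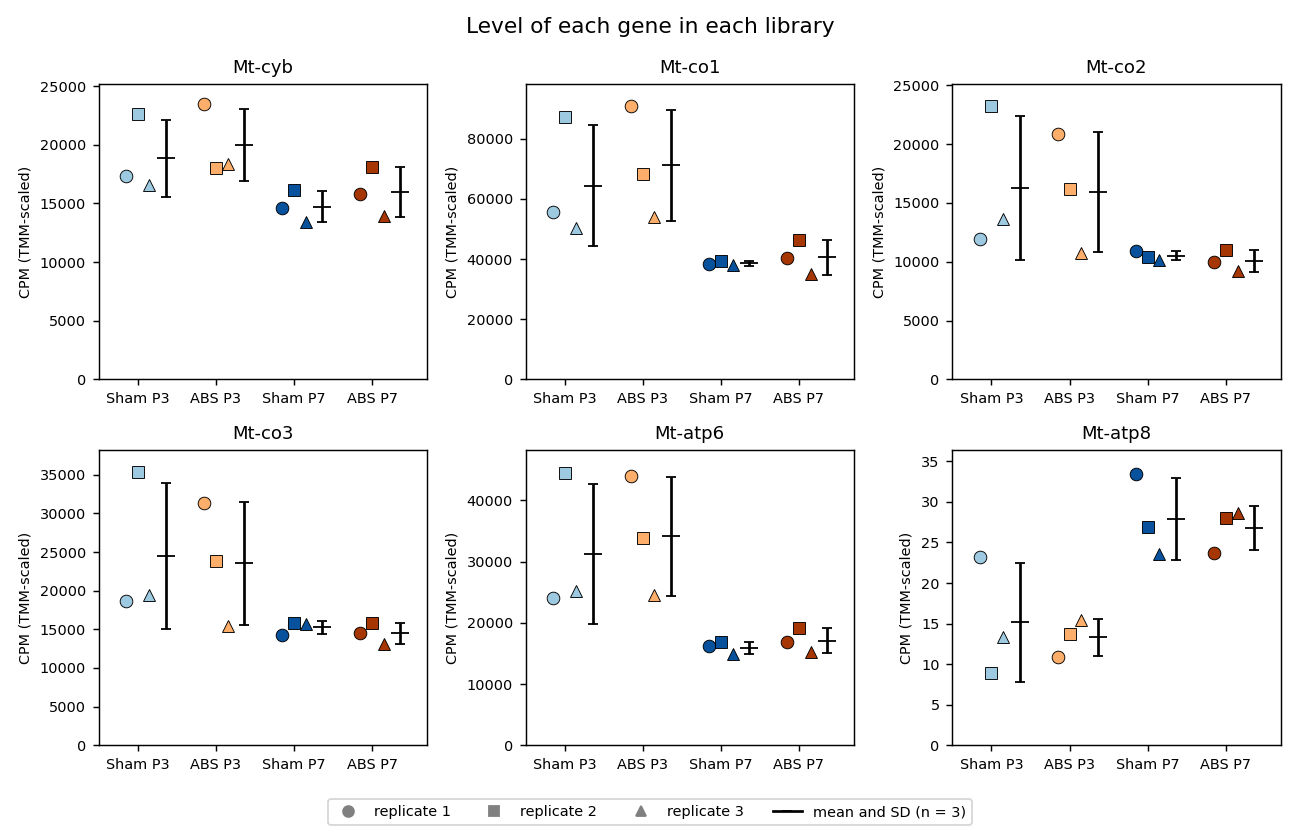
The level of each gene (CPM, linear axis from 0) is plotted for the 12 libraries, with 1 point per library, shaped by replicate, and the mean and SD of the 3 libraries of a group beside them. The P3 groups are widely spread, with Mt-co1 at 50221 to 90853 CPM, the P7 groups lie lower and closer together at 34931 to 46326 CPM, and Mt-atp8 shows the reverse order of days.

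The study set up ABS as a neonatal model of left ventricular pressure overload, and the 6 genes were compared between the ABS and sham libraries of the same day. At P3, no difference between the surgery groups was detected for any of the 6 genes. Mt-co1 was at 71128 ± 18507 CPM (SD, n = 3) after ABS and 64432 ± 20010 CPM (SD, n = 3) after sham surgery, which gave a log2 fold change of 0.16 with a standard error of 0.40 (edgeR, adjusted p = 1). The log2 fold changes of the other genes were 0.10 for Mt-cyb, -0.01 for Mt-co2, -0.04 for Mt-co3, 0.15 for Mt-atp6 and -0.16 for Mt-atp8, with standard errors of 0.32 to 0.43. The median of the 6 was 0.05, beside -0.01 over all 14222 genes tested. By edgeR's test, 0 of the 6 members passed an adjusted p of 0.05, beside 0 genes of the whole table (0%), and 0 of the 6 had an unadjusted p under 0.05, beside 47 genes (0.330%). DESeq2 called 0 of the 6 as well, beside 4 genes of those it tested (0.0199%). The 95% confidence intervals were wide, and that of Mt-co1 reached from -0.77 to 1.10 on the log2 scale.

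The direction at P3 depended on single libraries. The log2 fold change of Mt-co3 was -0.31 without ABS replicate 1 and 0.35 without sham replicate 2. Without the 3 libraries with the fewest genes detected, a comparison of ABS replicate 3 with sham replicates 1 and 3, it was -0.30 for Mt-co3, -0.25 for Mt-co2, 0.03 for Mt-co1, 0.11 for Mt-cyb, -0.01 for Mt-atp6 and -0.25 for Mt-atp8. In this fit, 0 of the 6 were called, beside 8 genes of the whole table (0.0525%), and the lone ABS library is assumed to vary like the sham libraries. ABS replicate 3 then lay above both sham libraries for Mt-cyb and below both for Mt-co2 and Mt-co3, so that 3 of the 6 genes did not overlap, beside 60.4% of the genes tested.

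At P7, the replicates were closer and the intervals narrower, and again no difference between ABS and sham was detected for any member. Mt-cyb, at 15963 ± 2109 CPM (SD, n = 3) after ABS and 14711 ± 1332 CPM (SD, n = 3) after sham surgery, had a log2 fold change of 0.12 with a standard error of 0.11 (edgeR, adjusted p = 1) and a 95% confidence interval of -0.14 to 0.37. Without ABS replicate 2 of P7, it was 0.014. The subunits of complex IV were at 0.07 (Mt-co1), -0.06 (Mt-co2) and -0.08 (Mt-co3), and those of complex V at 0.10 (Mt-atp6) and -0.06 (Mt-atp8). Across the 6 genes, the 95% confidence intervals lay between -0.36 and 0.37, and larger differences in either direction fell outside of them. With all 12 libraries in 1 fit, which share the wider spread of P3, the intervals at P7 reached from -0.75 for Mt-co3 to 0.74 for Mt-atp6. None passed the adjusted threshold in edgeR (0 of 6, beside 0% of 14635 genes) or in DESeq2 (0 of 6, beside 0.0958%), and 0 of the 6 passed the unadjusted threshold, beside 498 genes (3.40%). With all libraries, the CPM of the ABS and sham groups overlapped for all 6 genes on both days, whereas they did not overlap for 3.45% of the genes tested at P3 and 8.76% at P7.

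The difference between the days in the response to surgery was tested as the interaction over all 12 libraries. The interaction terms were -0.07 for Mt-co1, -0.03 for Mt-co2, -0.02 for Mt-co3, -0.03 for Mt-atp6, 0.03 for Mt-cyb and 0.12 for Mt-atp8 on the log2 scale, with standard errors of 0.29 to 0.44 and an adjusted p of 1 for each in edgeR. Of the 6 genes, 0 had an unadjusted p under 0.05, beside 1.16% of the 15236 genes tested, and DESeq2 called 0 of the 6, beside 0.0221%. Without the 3 P3 libraries with the fewest genes detected, the terms were 0.02 for Mt-cyb, 0.05 for Mt-co1, 0.20 for Mt-co2, 0.24 for Mt-co3, 0.11 for Mt-atp6 and 0.19 for Mt-atp8, and edgeR called 0 of the 6, beside 0% of 16054 genes.

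In edgeR's fits of all libraries, the log2 fold changes between P3 and P7 were further from 0 than those between the surgery groups. With voom and sample quality weights this did not hold in the sham group for Mt-co1 (-0.42 between the days, 0.53 for ABS against sham at P3) and Mt-cyb (-0.18 and 0.24). In edgeR's fits without sham replicate 2 of P3, it did not hold there for Mt-cyb (-0.21 and 0.27), Mt-co2 (-0.29 and 0.36) and Mt-co3 (-0.33 and 0.35). It held for the other genes, for Mt-co1 only narrowly (-0.466 and 0.464). Between the days, each of the 6 genes had the same sign in sham and ABS ventricles. In the sham group, Mt-atp6 was at 31254 ± 11505 CPM (SD, n = 3) at P3 and 15950 ± 992 CPM (SD, n = 3) at P7, giving a log2 fold change of -1.00 (standard error 0.31, 95% confidence interval -1.74 to -0.26). Its unadjusted p was 0.016 and its adjusted p was 0.287 in edgeR's quasi-likelihood test. The log2 fold change was -0.77 for Mt-co1, -0.71 for Mt-co3, -0.66 for Mt-co2 and -0.38 for Mt-cyb, with adjusted p values of 0.296 to 0.394. Mt-atp8 lay on the other side, at 15.2 ± 7.34 CPM (SD, n = 3) at P3 and 27.9 ± 5.04 CPM (SD, n = 3) at P7, and its log2 fold change was 0.87 with a standard error of 0.36 (edgeR, adjusted p = 0.308). By edgeR's test, 0 of the 6 passed the adjusted threshold, beside 0.00684% of 14619 genes, and 3 of the 6 (Mt-co1, Mt-atp6 and Mt-atp8) had an unadjusted p under 0.05, beside 16.1%.

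In the ABS group, Mt-atp6 was at 34123 ± 9665 CPM (SD, n = 3) at P3 and 17106 ± 1988 CPM (SD, n = 3) at P7, and its log2 fold change was -1.05 with a standard error of 0.28 (edgeR, adjusted p = 0.234). Mt-co1 had -0.87, Mt-co3 -0.76, Mt-co2 -0.72 and Mt-cyb -0.37, with adjusted p values of 0.238 to 0.382. For Mt-atp8, at 13.3 ± 2.28 CPM (SD, n = 3) at P3 and 26.8 ± 2.68 CPM (SD, n = 3) at P7, the log2 fold change was 0.96 (standard error 0.22, 95% confidence interval 0.45 to 1.47, adjusted p = 0.233 in edgeR). Again 0 of the 6 passed the adjusted threshold in edgeR, beside 0.0138% of 14504 genes, while 5 of the 6, all but Mt-cyb, had an unadjusted p under 0.05, beside 17.7%. With all libraries, the median log2 fold change of the 6 genes was -0.69 after sham surgery and -0.74 after ABS, beside 0.01 in each over all genes tested. Without the P3 libraries with the fewest genes detected, the differences of the single genes were smaller, as given below.

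Whether these differences passed the adjusted threshold depended on the weight of single P3 libraries and on the tool. DESeq2 called 2 of the 6 in the ABS group, Mt-atp6 (adjusted p = 0.029) and Mt-atp8 (adjusted p = 0.0223), beside 3.43% of the genes it tested, and 0 of the 6 in the sham group, beside 2.64%. With voom and sample quality weights in limma, 5 of the 6 were called in each group, all but Mt-cyb, but so were 53.5% of all genes in the ABS group and 54.1% in the sham group. Without ABS replicate 3 of P3, edgeR called all 6 members beside 50.1% of all genes. The P3 libraries left in that fit, ABS replicates 1 and 2, are among the 3 with the fewest genes detected. Without sham replicate 1 of P3, edgeR called 2, Mt-atp6 and Mt-atp8, beside 32.2%. Over all alternatives, the adjusted p of Mt-atp6 ranged from 6.81e-05 to 0.647 in the ABS group and from 0.00046 to 0.645 in the sham group, and that of Mt-atp8 from 0.00257 to 0.647 and from 0.000809 to 0.645.

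Without the 3 P3 libraries with the fewest genes detected, all 6 kept their direction and the differences were smaller. In the sham group, the log2 fold change was then -0.63 for Mt-atp6, -0.47 for Mt-co1, -0.33 for Mt-co3, -0.29 for Mt-co2, -0.21 for Mt-cyb and 0.60 for Mt-atp8. With ABS replicate 3 as the only P3 library of the ABS group, they were -0.54, -0.43, -0.11, -0.10, -0.21 and 0.78 in the same order, and the lone library is assumed to vary like the others. The values of Mt-co2 and Mt-co3 in the ABS group were then closer to 0 than those for ABS against sham at P3 without the same libraries (-0.25 and -0.30). Of the 6, 0 were called in either group, beside 0% of all genes after sham surgery and 3.15% after ABS. The part of the number of genes detected in the difference that remains was not tested, since the remaining P3 libraries also had fewer genes detected than all P7 libraries.

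The CPM of the P7 sham libraries did not overlap those of the P3 sham libraries for any of the 6 genes, beside 30.0% of the genes tested. The P7 libraries were the lower ones for 5 of the 6, beside 14.0% of the genes tested. In the ABS group, Mt-co1, Mt-atp6 and Mt-atp8 did not overlap, beside 27.9%, while ABS replicate 3 of P3 brought Mt-co2 and Mt-co3, and ABS replicate 2 of P7 brought Mt-cyb, into overlap. There the P7 libraries were the lower ones for 2 of the 6, Mt-co1 and Mt-atp6, beside 12.4% of the genes tested. Without the 3 P3 libraries with the fewest genes detected, all 6 again did not overlap in the sham group, beside 36.8% of the genes tested. In the ABS group 4 did not, Mt-cyb, Mt-co1, Mt-atp6 and Mt-atp8, beside 69.1% with a single P3 library. With library totals left unscaled, the median log2 fold change over all genes was shifted from 0.01 to 0.22 in sham and to 0.23 in ABS ventricles. In the sham group, Mt-atp6 was then at -0.74, Mt-co1 at -0.52, Mt-co3 at -0.45, Mt-co2 at -0.40, Mt-cyb at -0.15 and Mt-atp8 at 1.03. Each of these values had moved in the direction of that shift. Mt-cyb overlapped between the days with unscaled totals.

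**Figure D3:**
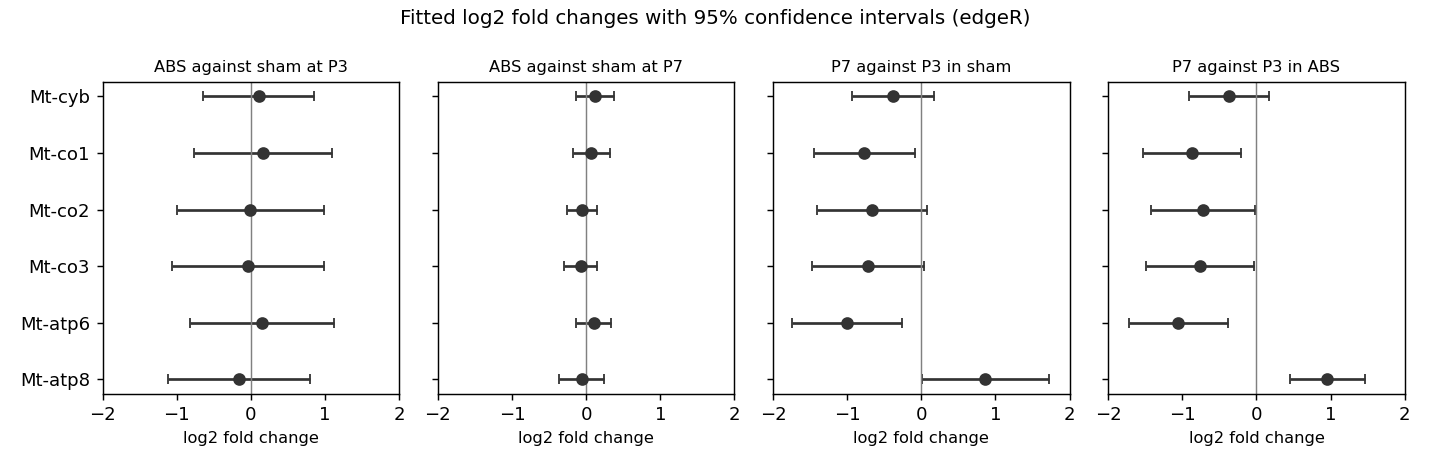
Log2 fold changes from edgeR (points) with their 95% confidence intervals (bars) are plotted for the 6 genes, in 1 panel for each comparison of ABS with sham or of P7 with P3. The intervals of both surgery comparisons include 0 and are narrower at P7. Between the days, the points of 5 genes lie below 0 and that of Mt-atp8 above it. Their intervals, not adjusted for multiple testing, exclude 0 for 3 of the 6 genes in the sham group and 5 of the 6 in the ABS group. Of all genes tested, 16.1% (sham) and 17.7% (ABS) had an unadjusted p under 0.05 in edgeR. After adjustment, 0 of the 6 passed in either group.

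To leave the scaling of libraries aside, counts of the genes were set in relation to each other within a library. The ratio of Mt-atp6 to Mt-cyb counts was 1.87, 1.88 and 1.34 in the ABS libraries of P3, and the sham libraries of that day had 1.38, 1.97 and 1.52. At P7, it was 1.07, 1.06 and 1.09 after ABS and 1.11, 1.05 and 1.11 after sham surgery. All P3 libraries were above all P7 libraries, and the spread at P7 was small. The P3 libraries with the fewest genes detected had the highest ratios, at 1.87 and 1.88 (ABS replicates 1 and 2) and 1.97 (sham replicate 2). The ratio of Mt-co1 to Mt-cyb averaged 3.54 ± 0.51 (SD, n = 3) in the ABS group and 3.37 ± 0.43 (SD, n = 3) in the sham group at P3, and 2.54 ± 0.02 (SD, n = 3) and 2.63 ± 0.19 (SD, n = 3) at P7. Among the P3 libraries, those with the fewest genes detected were highest, at 3.87 and 3.79 (ABS replicates 1 and 2) and 3.86 (sham replicate 2). The others had 2.95 (ABS replicate 3), 3.22 and 3.03 (sham replicates 1 and 3). The lowest P3 value was 2.95 and the highest P7 value 2.82, so the days again did not overlap.

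For Mt-co3, the ratio to Mt-cyb was 1.17 ± 0.28 (SD, n = 3) after ABS and 1.27 ± 0.26 (SD, n = 3) after sham surgery at P3, and 0.91 ± 0.03 (SD, n = 3) and 1.04 ± 0.10 (SD, n = 3) at P7. The P3 libraries with the fewest genes detected were again highest, at 1.33 and 1.32 (ABS replicates 1 and 2) and 1.56 (sham replicate 2). Sham replicates 1 and 3 of P3 had 1.07 and 1.18. Here ABS replicate 3 of P3, at 0.84, was below all P7 libraries. Among the subunits of complex IV, the ratio of Mt-co2 to Mt-co1 was 0.22 ± 0.02 (SD, n = 3) and 0.25 ± 0.03 (SD, n = 3) after ABS and sham surgery at P3, and 0.25 ± 0.01 (SD, n = 3) and 0.27 ± 0.01 (SD, n = 3) at P7. The sham libraries of both days overlapped in this ratio, and the ABS libraries of P3 (0.20 to 0.24) ended just below those of P7 (0.24 to 0.26). For Mt-co3 to Mt-co1, the days overlapped in both surgery groups.

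The genes of complex V were set against each other in the same way. Per 1000 counts of Mt-atp6, Mt-atp8 had 0.248, 0.404 and 0.627 counts in the ABS libraries of P3, while the sham libraries had 0.969, 0.200 and 0.528 counts. At P7, it had 1.40, 1.46 and 1.88 counts after ABS and 2.07, 1.60 and 1.58 counts after sham surgery. Every P7 library was above every P3 library, in both surgery groups. The P3 libraries with the fewest genes detected were lowest, at 0.248 and 0.404 (ABS replicates 1 and 2) and 0.200 (sham replicate 2). At each day, the ABS and sham libraries overlapped in this ratio. Since it is not known how reads lying on both genes were counted, the ratio of Mt-atp8 to Mt-atp6 is uncertain. These ratios are given as descriptions and were not tested.

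**Figure D4:**
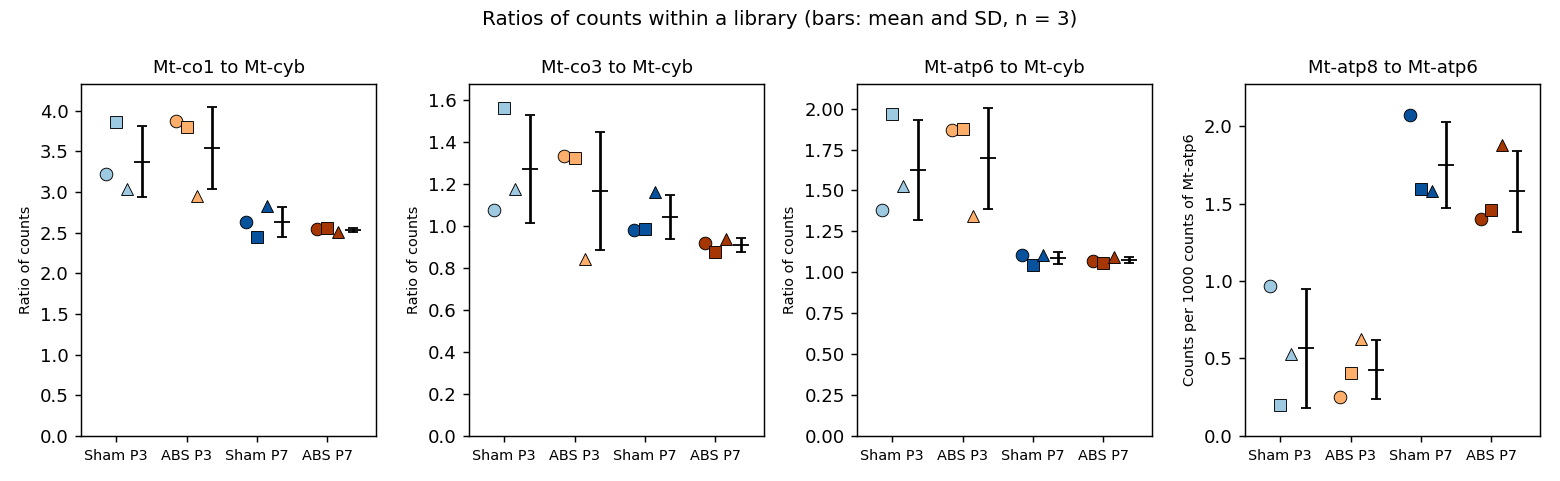
Ratios of counts within a library are plotted for the 4 groups, with 1 point per library, shaped by replicate, and the mean and SD of 3 libraries beside them. Mt-atp6 to Mt-cyb lies at 1.34 to 1.97 at P3 and at 1.05 to 1.11 at P7. Mt-atp8 per 1000 counts of Mt-atp6 lies at 0.200 to 0.969 at P3 and at 1.40 to 2.07 at P7. How reads lying on both Mt-atp8 and Mt-atp6 were counted is not given in the sources used here.

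The libraries of one day were also compared with each other across the members. Over the 6 libraries of P3, the log2 CPM of Mt-cyb, Mt-co1, Mt-co2, Mt-co3 and Mt-atp6 correlated in all 10 pairs, with Pearson r from 0.83 to 0.995, and Mt-atp8 ran against each of them with r from -0.84 to -0.72. Over the 6 libraries of P7, the 10 pairs ranged from 0.47 to 0.99, and the pairs with Mt-atp8 from -0.36 to 0.32. The points share their library totals and scaling, so these values are a description of the libraries.

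The rows whose log2 CPM over the 12 libraries was most like the mean of the 6 genes were sought among 9121 other rows with a mean of at least 10 CPM. The closest was ENSRNOG00000031033, with a Pearson r of 0.988 over 12 libraries (0.982 within P3 and 0.934 within P7). Its mean level was 14888 CPM after sham surgery and 15945 CPM after ABS at P3, and 10500.5 and 10926 CPM at P7. ENSRNOG00000030644 followed with an r of 0.972 (0.938 within P3 and 0.975 within P7), and the other 2 of the 4 closest rows were ENSRNOG00000042451, with an r of 0.969 (0.979 within P3 and 0.615 within P7), and ENSRNOG00000030478, with an r of 0.965 (0.994 within P3 and 0.809 within P7). The files do not pair these identifiers with symbols, and nothing is said here of their function.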

How the data were processed

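The authors deposited raw read counts, 1 file per library, on 32883 Ensembl rat genes and 1850 numbered rows. The labels state poly-T capture of messenger RNA and paired-end sequencing. The study's methods name a filter on adapter, low-quality and poly-N reads before counting with featureCounts. The submitters' processing notes name HISAT2 2.0.5 and the mouse builds GRCm38 and mm10, although the identifiers are of rat. The annotation and the strand setting are not given in the sources used here, and reads from copies of mitochondrial sequence in the nucleus or from overlapping genes may be misassigned.

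Groups were read from the sample titles. Whether libraries of a group came from separate litters is not stated, so p-values measure the spread between these libraries. The whole table was fitted with edgeR 4.0.16 (R 4.3.3): TMM, filterByExpr, robust dispersion, quasi-likelihood F test, two-sided, Benjamini-Hochberg adjustment over all genes tested, threshold 0.05. All 6 members passed the filter in each of the 5 comparisons. Standard errors were derived from the log2 fold change and its F statistic. The test was checked on simulated counts. Log2 CPM used a prior count of 2. Alternatives were DESeq2 1.42.0, RLE factors, plain totals, totals without the 6 members, no filter, the replicate number as a block, limma 3.58.1 with voom and quality weights, all 12 libraries in 1 fit, each library left out and, added after seeing the data, the 3 P3 libraries with the fewest genes detected left out. Libraries were compared for pairing by replicate number, and those of the same number did not deviate together in every pair. This does not exclude pairing.

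The members and lists were chosen with earlier results of these data known. All members were named. Symbols of the members were given with the list; 0 of the 32883 identifiers matched the RefSeq table (GRCr8), so the lists of nuclear-encoded subunits, regulators, assembly factors and cell type markers, and levels per gene length, were not run. The rule for similar rows was the 4 with the highest Pearson r to the mean log2 CPM of the members.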

Additional observations from a re-analysis of the deposited data

How the results depend on the processing

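The number of members past the adjusted threshold stayed at 0 for ABS against sham on both days and for the interaction under all alternatives. At most 4 genes of the whole table were called at P3, 15 at P7 and 5 for the interaction (DESeq2, 0.0199%, 0.0958% and 0.0221%). This leaves aside the fits without the 3 P3 libraries with the fewest genes detected. For P7 against P3 in the ABS group, the number of members was 2 with DESeq2 (beside 3.43% of all genes). It was 5 with voom and sample quality weights (beside 53.5%) and from 0 to 6 with one library left out (beside 50.1% where it was 6). In the sham group it was 5 with voom and sample quality weights (beside 54.1%) and from 0 to 2 with one library left out (beside 32.2% where it was 2). Of the log2 fold changes between the days, 0 changed direction under any alternative, and voom with weights gave -0.18 for Mt-cyb, -0.42 for Mt-co1, -0.41 for Mt-co2, -0.40 for Mt-co3, -0.69 for Mt-atp6 and 1.04 for Mt-atp8 in the sham group. With 1 library left out, those of the ABS group ranged from -0.46 to -0.23 for Mt-cyb, -1.04 to -0.64 for Mt-co1 and -0.94 to -0.46 for Mt-co2. Mt-co3 ranged from -0.99 to -0.49, Mt-atp6 from -1.25 to -0.82 and Mt-atp8 from 0.84 to 1.06. In the same order, the sham ranges were -0.47 to -0.21, -0.92 to -0.47, -0.86 to -0.29, -0.90 to -0.33, -1.18 to -0.63 and 0.605 to 1.28. With plain totals, Mt-cyb was at -0.13 in the ABS group.

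For ABS against sham at P3, voom with weights turned Mt-co2 to 0.33 and Mt-co3 to 0.36 and gave 0.24 for Mt-cyb, 0.53 for Mt-co1, 0.50 for Mt-atp6 and -0.026 for Mt-atp8, and leaving out the 3 libraries with the fewest genes detected turned Mt-atp6 to -0.0052. With one library left out, the range at P3 was -0.046 to 0.27 for Mt-cyb, -0.067 to 0.46 for Mt-co1, -0.27 to 0.36 for Mt-co2, -0.31 to 0.35 for Mt-co3, -0.092 to 0.51 for Mt-atp6 and -0.42 to 0.28 for Mt-atp8. At P7, it was -0.037 to 0.16 for Mt-co1, -0.17 to 0.084 for Mt-atp8, and 0.014 to 0.20 for Mt-cyb, -0.13 to -0.0017 for Mt-co2, -0.15 to -0.011 for Mt-co3 and 0.0087 to 0.17 for Mt-atp6. For the interaction, voom with weights gave -0.086 for Mt-cyb, -0.41 for Mt-co1, -0.35 for Mt-co2, -0.39 for Mt-co3, -0.37 for Mt-atp6 and -0.066 for Mt-atp8, and without the 3 libraries it was 0.051 for Mt-co1, 0.20 for Mt-co2, 0.24 for Mt-co3 and 0.11 for Mt-atp6. With one library left out, it ranged from -0.13 to 0.17 for Mt-cyb, -0.37 to 0.15 for Mt-co1, -0.39 to 0.22 for Mt-co2, -0.40 to 0.24 for Mt-co3, -0.39 to 0.20 for Mt-atp6 and -0.34 to 0.38 for Mt-atp8. The cause of these changes was not tested.

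Libraries of the same replicate number did not deviate together in every pair (correlations across genes of -0.45, 0.36 and -0.0088 at P3 and 0.0046, 0.061 and 0.0037 at P7). With the replicate block, edgeR called 0 members in each comparison, beside 0 genes of the whole table in each. Mt-atp8 had 122 to 511 counts per library, and the other members had at least 149013 counts in each.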
